A study of Mus musculus with 20 samples.

Results

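Bile acid synthesis, transport and regulation were followed in mouse liver through 33 genes, of which 13 encode enzymes of synthesis, 14 encode transporters and 6 encode regulators. The genes were taken by symbol. Each had 1 probe set of its own on the array, and all 33 were among the 14190 genes tested, out of 19938 genes that could be named. Liver RNA came from 20 male mice of 4 inbred strains, 5 animals each: NZO/Hl (NZO, New Zealand Obese), C57/Bl6 (B6), C3H and 129P2/OlaHsd (129P2). All animals of all strains were 6 weeks old and had eaten, from weaning at 21 days on, a high-fat diet that drew 45% of its energy from fat. No strain on another diet was compared, so every value below is a value under high-fat feeding. The labels give no substrain for C3H or C57/Bl6 and no transgene or treatment. NZO mice are known as a polygenic model of obesity and diabetes, so the strain differs from the others at many loci at the same time.

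Bile acids are made from cholesterol in hepatocytes. The classic pathway starts with a hydroxylation of the sterol ring by Cyp7a1, the alternative pathway with a hydroxylation of the side chain by Cyp27a1, and smaller amounts enter as oxysterols made elsewhere. The products are shortened in peroxisomes, joined to taurine or glycine, pumped into bile across the canalicular membrane, and taken up again from portal blood across the sinusoidal membrane. The nuclear receptor FXR (Nr1h4) senses bile acids and, through SHP (Nr0b2) and through the intestinal hormone FGF15 acting on Fgfr4 and Klb, lowers their synthesis.

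Values are log2 signals of the arrays, in which a difference of 1 is a 2-fold difference. They were compared gene by gene with limma over all 4 strains, and a difference is called here where its Benjamini-Hochberg adjusted p over the tested genes is below 0.05. Signals of different genes come from different probes and were not set against each other. The animals are separate mice with 1 array each, and their number limits the precision. In bulk liver, fewer cells of a type and less RNA per cell cannot be told apart. Sequence differences between strains under the probes were not tested, and Slco1a1 and Slco1a4, or Abcb4 and the related Abcb1 genes, could share signal through similar sequence.

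Of the animals, B6 replicate 3 stood apart. In it 94 tested genes lay more than 1 log2 unit from the mean of the other 4 B6 arrays, against 2 to 62 in the other 19 arrays. Its Cyp7b1 value was 9.28, against 11.56 to 12.78 in the other B6 animals. Sizes with and without it are given below for Cyp7b1, and calls lost without it are named. Other differences from B6 moved as well. Without it, NZO minus B6 was -0.50 for Cyp27a1, -0.44 for Slco2b1 and -1.07 for Slco1a4. With all animals these were -0.41, -0.36 and -1.22. For Slco1a4, 129P2 minus B6 was 0.99 without it and 0.84 with all animals. The hepatocyte markers were high in every animal. The log2 of their summed signals lay between 16.77 and 16.95. None of the 9 genes passed the F-test, while 1 was called higher in NZO than in B6. Of the cholangiocyte markers, 8 of 10 had a probe set and 4 were bright enough to test. None of the 4 was called in any comparison. The log2 of the summed signals of all 8 lay between 9.65 and 9.98 in all strains. That sum includes the markers too dim to test, so it says little about cholangiocytes.

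By the moderated F-test over the 4 strains, 18 of the 33 bile acid genes (54.5%) differed between strains, against 17% of all tested genes. The genes were chosen with earlier results of these data known, so the shares here and below are descriptions only. They were 7 of the 13 synthesis genes, 10 of the 14 transporters and 1 of the 6 regulators. The strain means spanned 1.0 log2 unit or more, after rounding, for 8 genes. Among them were the oxysterol hydroxylases Cyp46a1, high in C3H, Cyp39a1, low in NZO, and Cyp7b1, with its lowest mean in B6. Without B6 replicate 3, Cyp7b1 was 0.82 higher in C3H than in B6, and it was 0.83 higher in C3H than in 129P2. Its span of 1.0 or more and the place of B6 as the lowest strain therefore both rest on that animal. The others were the uptake carrier Slco1a4 and the exporter Abcc3, both low in NZO, and the exporter Abcc6, high in 129P2. The sterol exporter pair Abcg5 and Abcg8, low in NZO and C3H, completed the 8. Cyp7a1, the first enzyme of the classic pathway, varied more among animals of a strain than between strains. NZO had the lowest mean of the 4 strains for 18 of the 33 genes, 10 of them transporters, where over all tested genes it had the lowest mean for 23.7%.

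Between NZO and B6, 12 of 33 genes (36.4%) were called, against 10.3% of all tested genes. Of these, 10 were lower in NZO, with 6.64% of all genes called lower, and 2 were higher, with 3.63% called higher. Between NZO and C3H, 9 genes (27.3%) were called, against 6.6% of all genes; all 9 were lower in NZO, where 3.09% of all genes were called lower and 3.51% higher. Between NZO and 129P2, 11 genes (33.3%) were called, against 8.9% of all genes, with 9 lower in NZO (4.61% over all genes) and 2 higher (4.29%). These 3 comparisons share the 5 NZO animals. The median difference of the 33 genes was -0.08 for NZO minus B6, -0.15 for NZO minus C3H and -0.20 for NZO minus 129P2, and that of all tested genes was 0.01, 0.00 and 0.01. Among the 14 transporters alone the medians were -0.40, -0.19 and -0.35.

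Among the other strains, 9 of 33 genes (27.3%) were called between C3H and B6, against 8.05% of all genes. Of these, 4 were higher in C3H, all of them synthesis genes (2.71% of all genes were called higher), and 5 were lower, all of them transporters (5.34% called lower). Between 129P2 and B6, 5 genes (15.2%) were called, against 6.19% of all genes, with 4 higher in 129P2 (2.11% over all genes) and 1 lower (4.08%). That count was 2 without B6 replicate 2, B6 replicate 3, 129P2 replicate 1 or 129P2 replicate 5, and 3 without B6 replicate 1 or 129P2 replicate 3. Between C3H and 129P2, 6 genes (18.2%) were called, against 5.03% of all genes, with 2 higher in C3H (2.25% over all genes) and 4 lower (2.78%). With the spread of each array as a covariate, 6 genes were called between C3H and B6, 3 of which were among the 9, and the split was 6 higher and 0 lower. With another quantile normalization that split was 6 higher and 4 lower, and without B6 replicate 4 or C3H replicate 3 the count was 5. Splits of higher and lower genes also moved in other comparisons. With equal array medians they were 0 and 10 for NZO minus B6, 2 and 1 for 129P2 minus B6, and 1 and 4 for C3H minus 129P2. With array spread as a covariate the 129P2 minus B6 split was 6 and 0. Without B6 replicate 3, which stood apart, the counts were 11 for NZO minus B6, 9 for NZO minus C3H, 14 for NZO minus 129P2, 7 for C3H minus B6, 2 for 129P2 minus B6 and 7 for C3H minus 129P2.

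**Figure D1:**
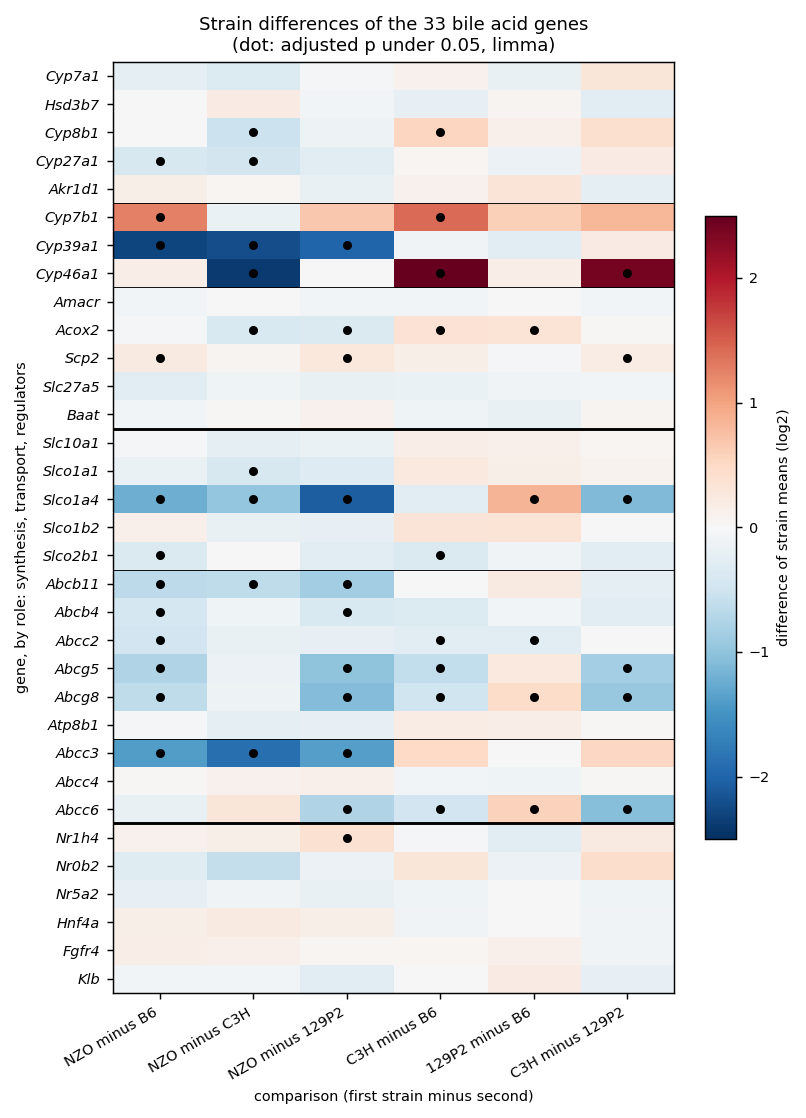
Difference of strain means (log2, colour) for the 33 bile acid genes (rows, by role; thick lines part synthesis, transport and regulators) in the 6 comparisons (columns, first strain minus second); a dot marks an adjusted p under 0.05 by limma. Dots in the NZO columns lie mostly on blue cells of transporters, and Cyp46a1 is dark red in both C3H comparisons, C3H minus B6 and C3H minus 129P2.

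Synthesis was described in 3 steps. Of the 5 enzymes of the sterol ring and the pathway entries, 2 passed the F-test, Cyp8b1 and Cyp27a1. Cyp8b1 adds the hydroxyl group that makes cholic acid and so sets the ratio of cholic acid to the muricholic acids of mice. Its log2 values were 10.88, 10.52, 10.88, 11.04 and 10.97 in NZO and 10.74, 10.88, 10.63, 10.84 and 11.19 in B6. They were 11.16, 11.56, 11.22, 11.45 and 11.57 in C3H and 10.58, 10.91, 10.95, 11.37 and 11.14 in 129P2. The C3H animals were all above the NZO animals, and 1 B6 animal reached the lowest C3H value. Cyp8b1 was 1.45-fold higher in C3H than in B6 (log2 difference 0.53, SE 0.13, limma adjusted p = 0.0146) and NZO was below C3H by the same margin (-0.53, SE 0.13, limma adjusted p = 0.0146). The difference between C3H and 129P2 was 0.40 (95% interval 0.12 to 0.68, limma adjusted p = 0.0952). Without NZO replicate 2 the NZO minus C3H call was lost (limma adjusted p = 0.0533), and without C3H replicate 5 the F-test missed the threshold (limma adjusted p = 0.0552).

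Cyp27a1, the mitochondrial enzyme that opens the alternative pathway and also acts on the side chain in the classic one, was low in NZO. Its values were 11.32, 10.99, 11.12, 11.16 and 11.03 in NZO and 11.42, 11.65, 11.18, 11.72 and 11.68 in B6. They were 11.48, 11.99, 11.38, 11.58 and 11.50 in C3H and 11.25, 11.35, 11.50, 11.44 and 11.40 in 129P2. All NZO animals were below all C3H animals, while 1 B6 animal and 1 129P2 animal lay within the NZO range. Cyp27a1 was 1.38-fold lower in NZO than in C3H (log2 difference -0.46, SE 0.11, limma adjusted p = 0.0104) and 1.33-fold lower than in B6 (-0.41, SE 0.11, limma adjusted p = 0.0205). The NZO minus 129P2 difference was -0.26 (limma adjusted p = 0.17). The call against B6 was lost with array spread as covariate, without the 3 narrowest arrays, and without NZO replicate 2 or 5 or B6 replicate 4 or 5 (limma adjusted p up to 0.0836). Without NZO replicate 2 or 5 the F-test missed the threshold as well (limma adjusted p up to 0.0527).

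The other 3 of these enzymes were not called in any comparison. Cyp7a1 had means of 10.05 ± 0.85 for NZO, 10.29 ± 0.71 for B6, 10.39 ± 0.74 for C3H and 10.10 ± 0.71 for 129P2 (SD, n = 5 each). Single animals ran from 9.02 to 11.32, both of them NZO mice, so the strains overlapped throughout. The largest difference, NZO minus C3H, was -0.34, with a 95% interval from -1.19 to 0.50, so a difference of more than 2-fold between these strains lies within the interval. Hsd3b7, which oxidizes the ring after Cyp7a1, ranged from 11.03 to 11.60 over the 20 animals, and Akr1d1, which reduces the ring, from 10.01 to 11.03. Their F-test adjusted p-values by limma were 0.175 and 0.365, and that of Cyp7a1 was 0.871.

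All 3 oxysterol hydroxylases passed the F-test. Cyp39a1 hydroxylates oxysterols that carry a hydroxyl group in the side chain, mainly the one exported from brain, and routes them to bile acids. Its values were 5.77, 6.75, 6.51, 5.44 and 6.49 in NZO, 8.09, 7.71, 9.25, 9.0 and 8.38 in B6, 8.45, 8.53, 8.29, 8.62 and 8.13 in C3H, and 8.49, 7.90, 8.19, 8.72 and 7.66 in 129P2. Every NZO animal was below every animal of the other strains. Cyp39a1 was 4.90-fold lower in NZO than in B6 (log2 difference -2.29, SE 0.26, limma adjusted p = 2.2e-06), 4.63-fold lower than in C3H (-2.21, SE 0.26, limma adjusted p = 4.3e-06) and 4.0-fold lower than in 129P2 (-2.0, SE 0.26, limma adjusted p = 1.7e-05). On 4 of the 5 NZO arrays the value lay below the 40th percentile of the array, the limit for dim signals here. With those values raised to that percentile, a check added after the data were seen, the differences were -1.85, -1.77 and -1.56, or 3.61-fold, 3.41-fold and 2.95-fold. Between B6, C3H and 129P2 the differences in Cyp39a1 were at most 0.29 in size and none was called.

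Cyp46a1, the enzyme that makes the side-chain oxysterol on which Cyp39a1 acts and that is known mainly from neurons, was high in C3H. Its values were 9.77, 10.48, 8.73, 9.26 and 9.63 in C3H. They were 7.09, 7.18, 7.21, 7.32 and 7.12 in NZO, 7.15, 7.07, 7.01, 6.86 and 7.0 in B6, and 7.12, 7.18, 7.29, 7.13 and 7.17 in 129P2. The 5 C3H animals were above all 15 others, whose values lay between 6.86 and 7.32. The 40th percentile, the limit for dim signals, lay at 6.53 to 6.72 over the arrays, so the signal outside C3H was low. C3H was 5.88-fold higher than B6 (log2 difference 2.56, SE 0.18, limma adjusted p = 1.75e-09), 5.24-fold higher than NZO and 5.27-fold higher than 129P2 (limma adjusted p = 5.4e-09 and 6.3e-09). The SD was 0.65 in C3H and between 0.07 and 0.11 in the other strains. Neither Cyp39a1 nor Cyp46a1 lost a call in any of the 30 alternative settings.

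Cyp7b1, the oxysterol hydroxylase of the alternative pathway, had its highest values in C3H and NZO. They were 12.96, 12.91, 12.77, 13.16 and 12.80 in NZO, 12.24, 12.78, 9.28, 11.56 and 12.41 in B6, 13.20, 12.80, 13.16, 13.17 and 13.06 in C3H, and 12.03, 11.95, 12.41, 12.07 and 12.78 in 129P2. The C3H animals were above all B6 animals, and the NZO animals were above 4 of the 5. Cyp7b1 was higher than in B6 by 1.42 in C3H (SE 0.39, limma adjusted p = 0.0269) and by 1.26 in NZO (SE 0.39, limma adjusted p = 0.0423). Both sizes rest on B6 replicate 3, without which they were 0.82 (limma adjusted p = 0.0062) and 0.67 (limma adjusted p = 0.0227). With all animals, C3H minus 129P2 was 0.83 (SE 0.39) and was not called (limma adjusted p = 0.3). Even so, every C3H value lay above every 129P2 value, the nearest being 12.80 and 12.78. The SE comes from the fit shared by all strains, which holds the low B6 value. Leaving out B6 replicate 3 lowered the SE of the C3H minus B6 difference from 0.39 to 0.18. The C3H minus B6 call was lost with robust moderation, with array spread as a covariate, without the 3 arrays of narrowest spread, with only those strains fitted, and without B6 replicate 4 or C3H replicate 1, 3 or 4 (limma adjusted p from 0.0542 to 0.148). The NZO minus B6 call was lost under the same 4 settings, with equal array medians, without any 1 of the NZO animals, and without B6 replicate 4, C3H replicate 1, 4 or 5 or 129P2 replicate 3 (limma adjusted p from 0.0504 to 0.137). The F-test (limma adjusted p = 0.0362) missed the threshold without NZO replicate 2, 3, 4 or 5, B6 replicate 4 or C3H replicate 1, 3, 4 or 5, and under 4 other settings (up to 0.124).

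**Figure D2:**
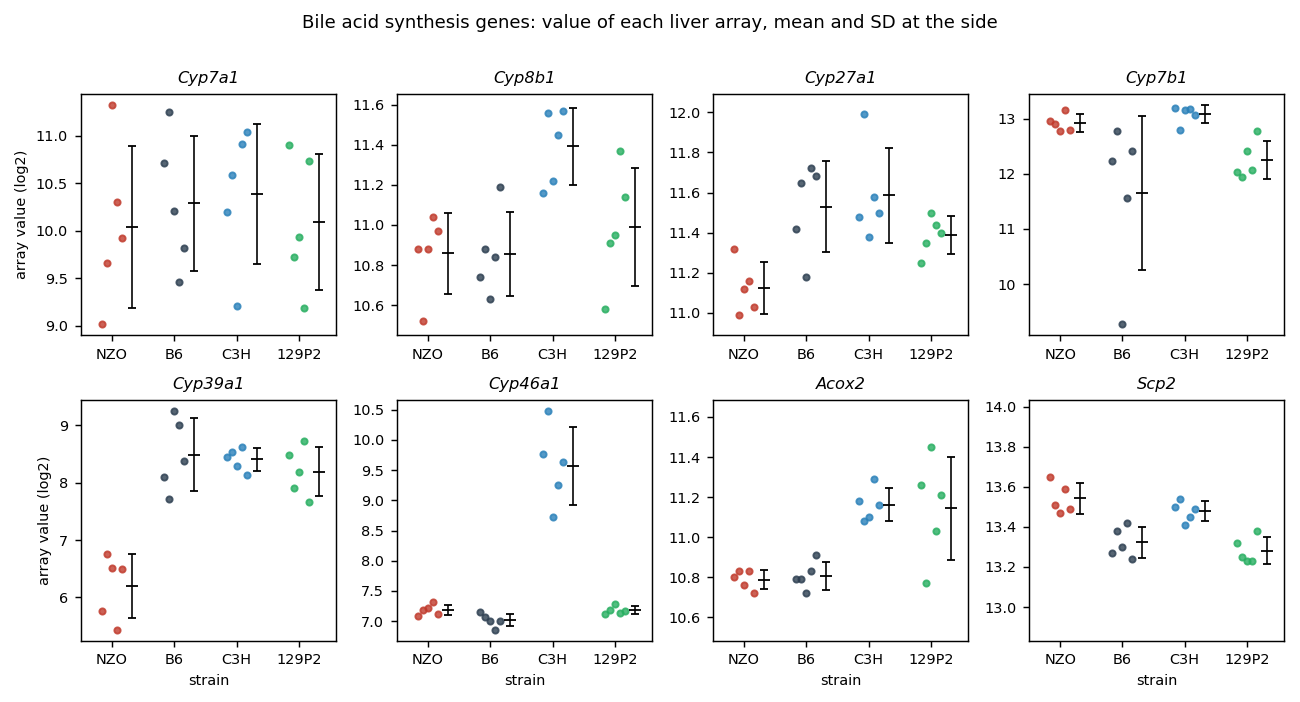
Log2 array value (vertical axis, its own scale in each panel) of 8 bile acid synthesis genes in the 5 animals of each strain (points), with strain mean and SD at the side (bars). Cyp39a1 is low in all NZO animals, Cyp46a1 is high in all C3H animals, B6 replicate 3 is the low point of Cyp7b1 at 9.28, and Cyp7a1 is spread from 9.02 to 11.32 with no separation of strains.

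Of the 5 genes for side-chain shortening and conjugation, 2 passed the F-test. Acox2 is the peroxisomal oxidase of branched side chains. Its values were 10.80, 10.83, 10.76, 10.83 and 10.72 in NZO, 10.79, 10.79, 10.72, 10.83 and 10.91 in B6, 11.18, 11.08, 11.10, 11.29 and 11.16 in C3H, and 11.26, 10.77, 11.45, 11.03 and 11.21 in 129P2. The C3H animals were above all NZO and B6 animals, and so were 4 of the 5 129P2 animals. Against NZO, C3H was 1.30-fold higher (limma adjusted p = 0.0129) and 129P2 1.28-fold higher (limma adjusted p = 0.0152). Against B6, C3H was 1.28-fold higher (limma adjusted p = 0.0189) and 129P2 1.26-fold higher (limma adjusted p = 0.0315). The 129P2 minus B6 call was lost with equal array medians, with only those strains fitted, and without B6 replicate 1, 2, 3 or 4 or 129P2 replicate 1, 3 or 5 (limma adjusted p from 0.0598 to 0.13). The C3H minus B6 call was lost with equal array medians and without B6 replicate 3 or C3H replicate 4, and the NZO minus 129P2 call with only those strains fitted and without 129P2 replicate 3 (limma adjusted p up to 0.0825 and 0.0707).

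Scp2, whose gene yields a sterol carrier and the peroxisomal thiolase of the last shortening step, was higher in NZO than in B6 and in 129P2. Its values were 13.65, 13.51, 13.47, 13.59 and 13.49 in NZO, 13.27, 13.38, 13.30, 13.42 and 13.24 in B6, 13.50, 13.54, 13.41, 13.45 and 13.49 in C3H, and 13.32, 13.25, 13.23, 13.23 and 13.38 in 129P2. All NZO animals were above all B6 and 129P2 animals. The differences were small, 1.16-fold against B6 (log2 difference 0.22, SE 0.06, limma adjusted p = 0.0129) and 1.20-fold against 129P2 (0.26, SE 0.06, limma adjusted p = 0.0032). C3H was 1.14-fold above 129P2 (0.20, SE 0.06, limma adjusted p = 0.0417). The call against B6 was lost without a filter on dim genes and with equal array medians (limma adjusted p = 0.0601 and 0.12). The call of C3H against 129P2 was lost under 6 settings and without C3H replicate 1, 2, 4 or 5 or 129P2 replicate 1, 2, 3 or 4 (limma adjusted p from 0.0572 to 0.157).

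Amacr, the racemase that turns the side chain for shortening, Slc27a5, which activates bile acids with coenzyme A, and Baat, which joins them to taurine or glycine, were not called in any comparison. Amacr ranged from 10.39 to 10.97, Slc27a5 from 11.19 to 12.01 and Baat from 10.64 to 11.40 over the 20 animals. Their largest differences were -0.08 for Amacr (C3H minus 129P2, 95% interval -0.32 to 0.16), -0.28 for Slc27a5 (NZO minus B6, -0.55 to -0.01) and -0.19 for Baat (129P2 minus B6, -0.43 to 0.06). Slc27a5 passed the F-test without NZO replicate 1, its highest value at 12.01 (limma adjusted p = 0.0302, against 0.389 with all animals).

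Among the transporters the calls ran mainly to lower values in NZO. Of the 14, 8 were lower in NZO than in B6, 4 were lower than in C3H and 7 were lower than in 129P2, and none was higher in these comparisons. Of all tested genes, 6.64%, 3.09% and 4.61% were called lower in NZO in these comparisons, and 17% passed the F-test. The endothelial markers moved in the same direction. Of 8, all passed the F-test, and 6 were lower in NZO than in B6, 4 than in C3H and 5 than in 129P2. With array spread as a covariate, or without NZO replicate 2, the first of these counts was 3. The log2 of their summed signals was 11.37 to 11.87 in NZO against 11.80 to 12.41 in the other strains. Of the 8 stellate cell markers, 2, 2 and 3 were lower in NZO in these comparisons. The log2 of their summed signals was 11.08 to 11.26 in NZO against 11.20 to 11.82 in the other strains. Of the 8 Kupffer cell markers, 1, 0 and 1 were lower. Some other markers were higher in NZO. Among 2 erythroid markers tested, 2, 0 and 1 were higher in these comparisons. The counts were 1, 0 and 0 of 4 neutrophil markers and 0, 0 and 1 of 4 lymphocyte markers. None in these lists was lower, and 3.63%, 3.51% and 4.29% of all tested genes were called higher. Among 5 intestine and gallbladder markers, 1, 1 and 0 were lower. The part of these markers in the transporter differences was not tested.

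**Figure D3:**
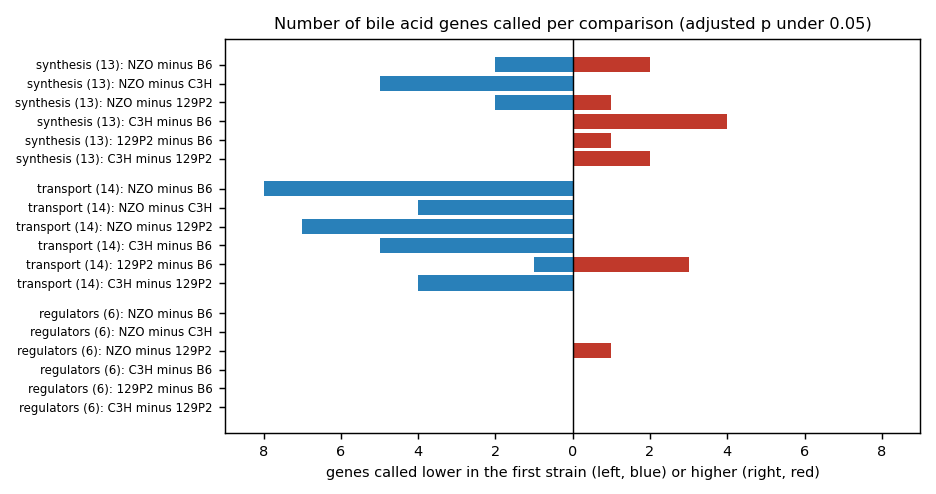
Number of bile acid genes called lower in the first strain (bars to the left) or higher (bars to the right) in each of the 6 comparisons, for 13 synthesis genes, 14 transporters and 6 regulators. In the 3 NZO comparisons the transporter bars reach 8, 4 and 7 to the left and 0 to the right, and the regulators have 1 called gene in all.

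Uptake from portal blood is carried by the sodium-dependent Slc10a1 (NTCP) and by organic anion transporters of the Slco family, of which 3 passed the F-test. Slco1a4, a carrier of bile acids and many drugs, showed the largest difference of a transporter. Its values were 7.84, 6.75, 7.16, 6.99 and 7.24 in NZO, 8.34, 7.76, 9.01, 8.70 and 8.25 in B6, 8.28, 8.76, 7.65, 7.95 and 8.13 in C3H, and 9.29, 9.47, 9.15, 9.43 and 8.92 in 129P2. The 129P2 animals were above all NZO and C3H animals, and 1 NZO animal reached the lowest B6 and C3H values. Slco1a4 was 4.17-fold lower in NZO than in 129P2 (log2 difference -2.06, SE 0.21, limma adjusted p = 6.2e-07), 2.32-fold lower than in B6 (-1.22, SE 0.21, limma adjusted p = 0.00051) and 1.94-fold lower than in C3H (-0.96, SE 0.21, limma adjusted p = 0.0056). It was also 1.79-fold higher in 129P2 than in B6 (limma adjusted p = 0.0175, lost at 0.0584 without B6 replicate 2) and 2.15-fold higher in 129P2 than in C3H (limma adjusted p = 0.0021).

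Slco1a1, a male-predominant carrier of the same family, also had its lowest mean in NZO, and its highest in C3H. Its values were 11.94, 11.21, 11.62, 11.75 and 11.73 in NZO, 11.85, 11.90, 11.54, 11.91 and 11.89 in B6, 12.11, 12.22, 11.83, 12.07 and 12.06 in C3H, and 11.95, 11.92, 12.03, 11.93 and 12.03 in 129P2. Most C3H animals were above the NZO animals, but the lowest C3H value lay under the highest NZO value. Slco1a1 was 1.32-fold lower in NZO than in C3H (log2 difference -0.41, SE 0.11, limma adjusted p = 0.0194). That call was lost with equal array medians, with only those strains fitted, and without NZO replicate 2 or C3H replicate 1 or 2 (limma adjusted p from 0.0503 to 0.0657). The F-test (limma adjusted p = 0.0335) missed the threshold with equal array medians (0.102) and without NZO replicate 2 or 3, C3H replicate 1, 2, 4 or 5 or 129P2 replicate 5 (up to 0.0722).

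Slco2b1, a broad carrier of organic anions, was low in NZO and in C3H. Its values were 9.99, 9.84, 9.78, 9.94 and 9.74 in NZO, 10.37, 10.19, 9.88, 10.25 and 10.40 in B6, 9.86, 9.99, 9.61, 9.86 and 9.93 in C3H, and 10.03, 10.07, 10.36, 10.11 and 10.10 in 129P2. Of the B6 animals, 4 were above all NZO and C3H animals, and B6 replicate 3 lay within their range. Slco2b1 was 1.28-fold lower in NZO than in B6 (log2 difference -0.36, SE 0.10, limma adjusted p = 0.021) and 1.29-fold lower in C3H than in B6 (-0.37, SE 0.10, limma adjusted p = 0.0222). The NZO call was lost with array spread as covariate and without NZO replicate 3 or 5 or B6 replicate 1, 4 or 5 (limma adjusted p up to 0.0727). The C3H call was lost with array spread as covariate, without the 3 arrays of narrowest spread, with only those strains fitted, and without B6 replicate 1, 4 or 5 or C3H replicate 3 (limma adjusted p up to 0.129).

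Slc10a1 and Slco1b2, the sodium-independent carrier of the liver, were not called. Slc10a1 ranged from 12.93 to 13.54, and its largest difference was -0.22 (NZO minus C3H, 95% interval -0.40 to -0.04, limma adjusted p = 0.175). Slco1b2 ranged from 11.42 to 12.68, and its largest difference was 0.33 (129P2 minus B6, 95% interval 0.05 to 0.62, limma adjusted p = 0.177). The lowest value of both genes was that of B6 replicate 3.

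Of the 6 genes of canalicular export into bile, 5 passed the F-test. Abcb11 is BSEP, the pump that moves conjugated bile acids into bile. Its values were 11.95, 11.58, 11.59, 11.39 and 11.47 in NZO, 12.14, 12.04, 12.27, 12.49 and 12.28 in B6, 12.28, 12.46, 12.00, 12.25 and 12.17 in C3H, and 12.53, 12.22, 12.54, 12.60 and 12.47 in 129P2. Every NZO animal was below every animal of the other strains. Abcb11 was 1.57-fold lower in NZO than in B6 (log2 difference -0.65, SE 0.11, limma adjusted p = 0.00024), 1.55-fold lower than in C3H (-0.63, SE 0.11, limma adjusted p = 0.00033) and 1.83-fold lower than in 129P2 (-0.87, SE 0.11, limma adjusted p = 6.3e-06). None of these 3 calls was lost in any of the 30 alternative settings, and with array spread as a covariate the differences were -0.50, -0.67 and -0.90.

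Abcb11 is known as a direct target of FXR, which binds inverted repeats of a short core sequence. The sequence before its start is shown because Abcb11 was lower in NZO than in each other strain. What is shown is the reference sequence, and the sequences of the strains themselves were not compared. RefSeq promoter windows, of 250 bases before and 50 bases after each annotated start in GRCm38.p6, were at hand for 24 of the 33 genes. The FXR-type pattern was an inverted repeat with 1 base between its arms, in which 1 base of the second arm could vary. Read on both strands, it was found in the windows of Abcb11 and Slco1b2, and in 0.237% of 32851 windows of all genes. The match in Abcb11 departs from an exact inverted repeat at that free base. The 250 bases before the start of Abcb11, chr2:69342617-69342866 on the minus strand, are given 5′ to 3′ with the match, which begins 62 bases before the start, in capitals.
Abcb11: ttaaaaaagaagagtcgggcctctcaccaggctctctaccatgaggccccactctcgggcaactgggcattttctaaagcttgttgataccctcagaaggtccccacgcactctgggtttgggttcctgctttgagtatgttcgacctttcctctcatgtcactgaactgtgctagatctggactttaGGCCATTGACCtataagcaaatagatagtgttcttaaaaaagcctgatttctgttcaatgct
The motif AAGGTCA, the extended core bound by LRH-1 (Nr5a2), was found in the windows of Abcc2 and Slco1a1 and in 4.72% of all windows; the letters GGTCA are common to both motifs. The motifs were chosen after the sequences were seen, and a match describes the letters only.

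Abcg5 and Abcg8 form an obligate pair of transporter subunits that moves cholesterol and plant sterols into bile. The Abcg5 values were 10.15, 9.79, 9.80, 9.65 and 10.32 in NZO, 10.76, 10.44, 10.62, 11.10 and 10.61 in B6, 10.13, 10.10, 10.06, 10.19 and 9.98 in C3H, and 11.40, 10.91, 10.77, 10.58 and 11.06 in 129P2. The Abcg8 values were 10.17, 10, 9.92, 9.85 and 10.15 in NZO, 10.79, 10.48, 10.35, 10.99 and 10.62 in B6, 10.31, 10.32, 9.77, 10.24 and 10.10 in C3H, and 11.47, 10.91, 11.18, 10.76 and 11.20 in 129P2. For both genes every NZO and C3H animal was below every B6 and 129P2 animal. Abcg5 was 2.0-fold lower in NZO than in 129P2 (log2 difference -1.0, SE 0.14, limma adjusted p = 4.6e-05) and 1.69-fold lower than in B6 (-0.76, SE 0.14, limma adjusted p = 0.00096). In C3H it was 1.80-fold lower than in 129P2 (limma adjusted p = 0.0004) and 1.53-fold lower than in B6 (limma adjusted p = 0.0085, lost at 0.0548 with array spread as a covariate).

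Abcg8 was 2.12-fold lower in NZO than in 129P2 (log2 difference -1.09, SE 0.13, limma adjusted p = 7.4e-06) and 1.55-fold lower than in B6 (-0.63, SE 0.13, limma adjusted p = 0.0033). In C3H it was 1.94-fold lower than in 129P2 (limma adjusted p = 5e-05) and 1.41-fold lower than in B6 (limma adjusted p = 0.0244). It was also 1.37-fold higher in 129P2 than in B6 (limma adjusted p = 0.0446), a call that Abcg5 did not have (0.24, limma adjusted p = 0.396). NZO and C3H differed by -0.15 for Abcg5 and -0.13 for Abcg8, and neither was called. The C3H minus B6 call of Abcg8 was lost with array spread as covariate, without the 3 narrowest arrays, and without B6 replicate 1 or 4 or C3H replicate 3 (limma adjusted p from 0.0597 to 0.174). The 129P2 minus B6 call was lost with equal array medians, with only those strains fitted, and without NZO replicate 2, 3 or 5, B6 replicate 2, 3 or 5, C3H replicate 1, 4 or 5 or 129P2 replicate 1, 3 or 5 (limma adjusted p from 0.0505 to 0.133).

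The genes lie head to head, and the gap between their annotated starts is shown because both genes were low in NZO and C3H. The gap is 109 bases long, chr17:84683012-84683120 in GRCm38.p6 (RefSeq), and is given 5′ to 3′ on the plus strand, the strand of Abcg8. The other window of Abcg8 starts farther upstream, and the annotated span of Abcg8 begins inside that of Abcg5. Capitals mark 2 matches to AGATAA on the opposite strand, a form of the GATA factor motif found on either strand in 11.2% of all promoter windows.
Abcg5-Abcg8 gap: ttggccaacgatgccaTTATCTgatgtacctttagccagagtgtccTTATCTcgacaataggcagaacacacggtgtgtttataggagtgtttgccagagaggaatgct
AGATAA was also found in the windows of Hnf4a, Nr1h4 and Nr5a2.

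Abcb4 flops phosphatidylcholine into bile, where it protects the ducts from bile acids. Its values were 10.79, 10.20, 10.44, 10.77 and 10.42 in NZO, 10.83, 10.82, 11.32, 10.94 and 10.95 in B6, 10.61, 10.95, 10.41, 10.67 and 10.49 in C3H, and 10.81, 10.81, 11.01, 11.02 and 10.89 in 129P2. All NZO animals were below all B6 and 129P2 animals, the nearest by a narrow gap. Abcb4 was 1.36-fold lower in NZO than in B6 (log2 difference -0.45, SE 0.12, limma adjusted p = 0.0179) and 1.31-fold lower than in 129P2 (-0.39, SE 0.12, limma adjusted p = 0.0455). The call against B6 was lost with array spread as covariate and without NZO replicate 2 or B6 replicate 3 (limma adjusted p from 0.0631 to 0.0727). The call against 129P2 was lost without a filter on dim genes, with equal array medians, without the 3 arrays of narrowest spread, with only those strains fitted, and without NZO replicate 2, 3 or 5, B6 replicate 1, 4 or 5, C3H replicate 1, 4 or 5 or 129P2 replicate 1, 3, 4 or 5 (limma adjusted p from 0.0509 to 0.142). The F-test missed the threshold without the 3 arrays of narrowest spread (limma adjusted p = 0.0627).

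Abcc2 (MRP2) exports bilirubin glucuronides, glutathione and doubly charged bile acid conjugates, and was high in B6. Its values were 11.84, 11.79, 11.89, 11.81 and 11.73 in B6, 11.47, 11.33, 11.29, 11.28 and 11.35 in NZO, 11.42, 11.72, 11.31, 11.60 and 11.59 in C3H, and 11.45, 11.53, 11.59, 11.58 and 11.56 in 129P2. All B6 animals were above all others, the nearest being C3H replicate 2. Abcc2 was 1.38-fold lower in NZO than in B6 (log2 difference -0.47, SE 0.07, limma adjusted p = 0.00016), a call kept in all 30 settings. It was 1.22-fold lower in C3H (limma adjusted p = 0.0181) and 1.20-fold lower in 129P2 (limma adjusted p = 0.0307) than in B6. The C3H call was lost with array spread as covariate, with only those strains fitted, and without B6 replicate 3 or C3H replicate 1 or 3. The 129P2 call was lost with array spread as covariate and without B6 replicate 1, 3 or 4 or 129P2 replicate 1 or 5 (limma adjusted p from 0.0501 to 0.112 over both).

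Atp8b1, the flippase that keeps the canalicular membrane resistant to bile salts, was the 1 canalicular gene not called. It ranged from 9.68 to 10.54, and its largest difference was -0.24 (NZO minus C3H, 95% interval -0.50 to 0.03, limma adjusted p = 0.389). Its F-test passed without 129P2 replicate 2, the lowest value (limma adjusted p = 0.0373), and without the 3 arrays of narrowest spread (0.0237).

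**Figure D4:**
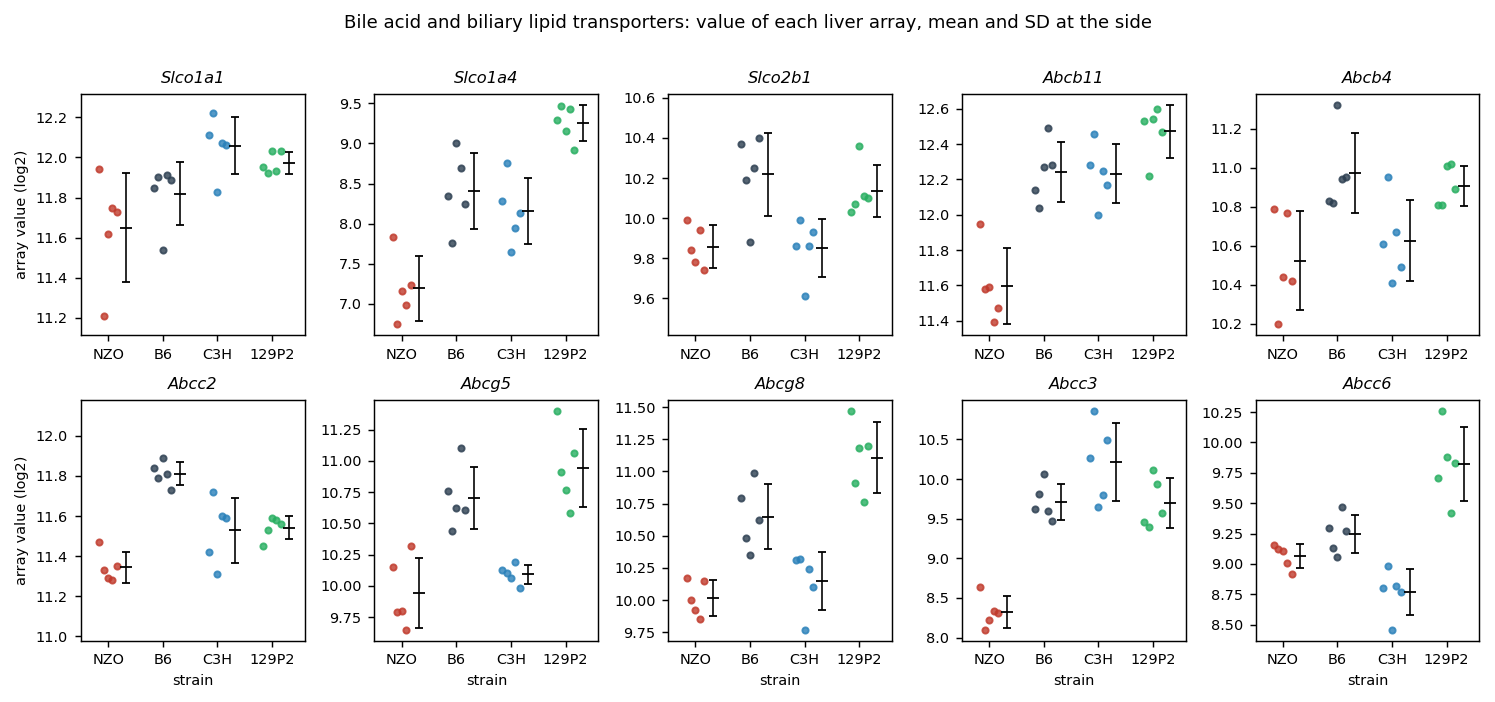
Log2 array value (vertical axis, its own scale in each panel) of the 10 transporters past the F-test in the 5 animals of each strain (points), with strain mean and SD at the side (bars). NZO is lowest for Slco1a4, Abcb11 and Abcc3, NZO and C3H are low and B6 and 129P2 high for Abcg5 and Abcg8, and 129P2 is highest for Abcc6.

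Export back to blood across the basolateral membrane was represented by Abcc3, Abcc4 and Abcc6. Abcc3 (MRP3) moves glucuronides and bile acids into sinusoidal blood. Its values were 8.64, 8.10, 8.22, 8.33 and 8.31 in NZO, 9.62, 9.81, 10.06, 9.60 and 9.47 in B6, 10.27, 10.86, 9.65, 9.80 and 10.49 in C3H, and 9.46, 9.39, 10.12, 9.94 and 9.57 in 129P2. Every NZO animal was below every animal of the other strains. Abcc3 was 3.71-fold lower in NZO than in C3H (log2 difference -1.89, SE 0.19, limma adjusted p = 2.3e-07), 2.62-fold lower than in B6 (-1.39, SE 0.19, limma adjusted p = 1.9e-05) and 2.59-fold lower than in 129P2 (-1.37, SE 0.19, limma adjusted p = 2.4e-05). These calls were kept in all 30 settings.

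Abcc6, a basolateral transporter of hepatocytes that lets ATP leave the cell, was high in 129P2. Its values were 9.71, 10.26, 9.88, 9.42 and 9.83 in 129P2, 9.16, 9.12, 9.11, 9.01 and 8.92 in NZO, 9.30, 9.13, 9.06, 9.47 and 9.27 in B6, and 8.80, 8.98, 8.46, 8.82 and 8.77 in C3H. The 129P2 animals were above all NZO and C3H animals, and 1 B6 animal exceeded the lowest of them. Abcc6 was 2.08-fold lower in C3H than in 129P2 (log2 difference -1.05, SE 0.12, limma adjusted p = 3.1e-06), 1.69-fold lower in NZO than in 129P2 (limma adjusted p = 0.00018) and 1.49-fold higher in 129P2 than in B6 (limma adjusted p = 0.0038). C3H was also 1.40-fold below B6 (limma adjusted p = 0.0147), a call lost with another quantile normalization, with array spread as a covariate, and without B6 replicate 4 or C3H replicate 3 (limma adjusted p from 0.0517 to 0.0687). Abcc4 (MRP4), the other exporter, ranged from 7.02 to 7.50 and was not called, with a largest difference of 0.13 (NZO minus 129P2, 95% interval -0.03 to 0.29). Its signal was low in all strains, against a 40th percentile of 6.53 to 6.72 over the arrays.

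Array spread, the interquartile range of all probe sets of an array, had a median of 2.445 in B6 (2.34 to 2.479), 2.296 in NZO (2.202 to 2.495), 2.328 in C3H (2.171 to 2.395) and 2.334 in 129P2 (2.192 to 2.37). Of the 33 genes, 7 followed it within strains, all upwards, against 49% of all tested genes. They were Slc27a5, Slco1a1, Slco1a4, Abcb11, Abcb4, Abcc3 and Klb. With spread as a covariate the NZO minus B6, NZO minus C3H and NZO minus 129P2 differences were -1.13, -1.95 and -1.41 for Abcc3 and -0.92, -1.02 and -2.10 for Slco1a4.

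Of the 6 regulators, 1 passed the F-test (16.7%, against 17% of all tested genes). It was Nr1h4 (FXR), the bile acid receptor (limma adjusted p = 0.0429). Its values were 10.49, 10.40, 10.42, 10.38 and 10.35 in NZO, 10.54, 10.54, 10.25, 10 and 10.22 in B6, 10.21, 10.32, 10.02, 10.35 and 10.43 in C3H, and 9.89, 10.04, 10.10, 9.97 and 10.17 in 129P2. All NZO animals were above all 129P2 animals, and the other strains overlapped with both. Nr1h4 was 1.30-fold higher in NZO than in 129P2 (log2 difference 0.38, SE 0.10, limma adjusted p = 0.015), and was not called in the other 5 comparisons. The pairwise call was kept in all 30 settings, while the F-test missed the threshold with equal array medians, without the 3 narrowest arrays, and without any 1 NZO animal, B6 replicate 3 or 5, C3H replicate 1 or 4 or 129P2 replicate 1, 2, 3 or 4 (limma adjusted p from 0.0507 to 0.115).

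Nr0b2 (SHP), the repressor that FXR induces, varied most among the regulators. It had means of 8.91 ± 0.43 for NZO, 9.21 ± 0.39 for B6, 9.51 ± 0.39 for C3H and 9.07 ± 0.69 for 129P2 (SD, n = 5 each), and single animals ran from 7.94 to 10.06. Its largest difference was -0.60 (NZO minus C3H, 95% interval -1.15 to -0.05, limma adjusted p = 0.247). Nr5a2 (LRH-1), which drives Cyp7a1 and Cyp8b1, ranged from 9.79 to 10.40, and Hnf4a, a master factor of hepatocytes, from 11.55 to 12.10. The NZO animals, at 11.96 to 12.10 for Hnf4a, were all above the C3H animals, at 11.62 to 11.91 (0.23, 95% interval 0.04 to 0.41, limma adjusted p = 0.163). Fgfr4, the FGF15 receptor of hepatocytes, ranged from 8.78 to 9.31 and its partner Klb from 8.49 to 9.42. The largest differences of these 4 genes were between 0.18 and 0.28 in size. None was called, with F-test adjusted p-values by limma of 0.333, 0.266, 0.353 and 0.413. With array spread as a covariate, Klb passed the F-test (limma adjusted p = 0.0147).

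**Figure D5:**
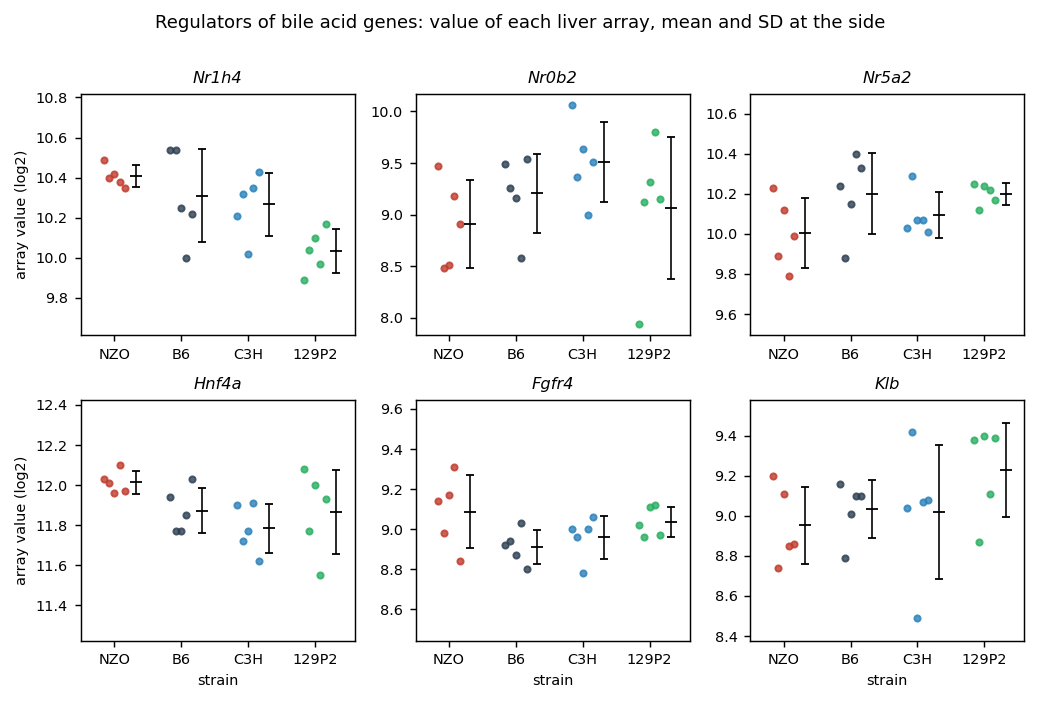
Log2 array value (vertical axis, its own scale in each panel) of the 6 regulators in the 5 animals of each strain (points), with strain mean and SD at the side (bars). Nr1h4 is higher in all NZO than in all 129P2 animals, Nr0b2 runs from 7.94 to 10.06, all NZO animals are above all C3H animals for Hnf4a, which was not called, and the strains overlap in the panels of Nr5a2, Fgfr4 and Klb.

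Other genes of the pathway, 50 of them bright enough to test, were counted beside the 33. Of these, 21 passed the F-test (42%), against 17% of all tested genes. The lists of these genes, too, were chosen with earlier results of these data known. In NZO 13 were lower and 1 higher than in B6, where 6.64% of all genes were called lower and 3.63% higher. Against C3H 8 were lower and 1 higher (3.09% and 3.51% of all genes), and against 129P2 15 were lower and 2 higher (4.61% and 4.29%). Of the 13 enzymes, 5 passed, and the named ones were low in NZO. Cyp3a11, which hydroxylates and detoxifies bile acids, was at 9.58 ± 1.28 in NZO. It was at 11.63 ± 0.32 in B6, at 11.42 ± 0.41 in C3H and at 11.73 ± 0.39 in 129P2 (SD, n = 5 each; limma adjusted p = 0.001, 0.0036 and 0.00067). The peroxisomal thiolase Acaa1b was at 9.90 ± 0.49 in NZO (SD, n = 5), with differences of -0.89 from B6 and -0.99 from 129P2 (limma adjusted p = 0.00083 and 0.00026). Ephx1, an epoxide hydrolase, was lower in NZO than in 129P2 (-0.82, limma adjusted p = 0.00055), and so was Acaa1a (-0.37, limma adjusted p = 0.0036).

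Of the 15 other transporters, 9 passed the F-test. Scarb1, the HDL receptor that brings cholesterol to the hepatocyte, was at 10.53 ± 0.11 in NZO. It was at 11.22 ± 0.13 in B6, at 11.26 ± 0.18 in C3H and at 11.46 ± 0.22 in 129P2 (SD, n = 5 each; limma adjusted p = 9.5e-05, 4.6e-05 and 1.75e-06). Slc10a2, the apical bile acid carrier known from ileum and bile ducts, was at 7.88 ± 0.30 in NZO and 9.50 ± 0.71 in 129P2 (limma adjusted p = 0.00096), with B6 at 8.80 ± 0.62 and C3H at 8.38 ± 0.55. Slco2a1, a prostaglandin carrier, was lower in NZO than in B6 (-0.95) and in C3H (-0.89) and higher than in 129P2 (0.51; limma adjusted p = 7.5e-05, 0.00017 and 0.0235). The 129P2 call was lost without the 3 narrowest arrays and without NZO replicate 3 or 5 or 129P2 replicate 2 or 3 (limma adjusted p up to 0.105). Abcb1b, a drug exporter, was at 7.72 ± 0.40 in NZO and 7.59 ± 0.33 in 129P2, and below the 40th percentile on all 5 arrays of B6 and of C3H. Against that percentile NZO was at least 2.22-fold above B6 and at least 2.13-fold above C3H, and 129P2 at least 2.03-fold above B6 and 1.94-fold above C3H (limma adjusted p = 9.85e-07, 2.3e-07, 5.2e-06 and 1.2e-06 for the fitted differences).

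Of the 22 other regulators, 7 passed the F-test. Nr1i3 (CAR), a nuclear receptor of drug and bile acid handling, was at 9.30 ± 0.53 in NZO and 10.63 ± 0.38 in 129P2 (limma adjusted p = 0.0013). The circadian repressor Nr1d1 was at 11.18 ± 0.15 in NZO, with differences of -0.62 from B6 and -0.66 from C3H (limma adjusted p = 0.0102 and 0.0079). The coactivator Ppargc1a was lower in NZO than in B6 (-0.56) and in 129P2 (-0.62; limma adjusted p = 0.0252 and 0.0138). The B6 call was lost with array spread as covariate, with the mean of probe sets, and without NZO replicate 3 or 4 or B6 replicate 3 or 4 (limma adjusted p up to 0.116), and the 129P2 call with the mean of probe sets (0.0543). Dbp, a clock output factor that acts on Cyp7a1, had means of 9.30 ± 0.28 in NZO and 9.63 ± 1.10 in 129P2, against 10.40 ± 0.53 in B6 and 10.45 ± 0.45 in C3H (SD, n = 5 each), with an F-test limma adjusted p of 0.0481 and no pairwise call. The labels give no time of day of tissue collection.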

How the data were processed

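Liver RNA of 20 mice was measured on Affymetrix arrays, 1 array per animal. The deposited values are log2 signals per probe set that the authors made with RMA in Affymetrix Expression Console, per the submitters' processing notes; versions and genome build are not given in the sources used here. Of 35556 probe sets, 21789 had 1 gene symbol in the platform annotation, 1621 several and 12146 none here; 21698 were matched to RefSeq (GRCm38.p6) and 0 symbols changed. These gave 19938 genes, 999 with several probe sets, of which the one of highest mean was used. Genes above the 40th percentile of their array on at least 5 arrays were tested (14190 tested, 5748 set aside).

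Strains were compared in 1 limma fit (limma 3.58.1, R 4.3.3) with an intensity trend, a moderated F-test and 6 pairwise comparisons, adjusted by Benjamini-Hochberg over all tested genes. The fit was run on simulated data with independent noise for each gene and changes in NZO only. That simulation held no array effects, so it does not cover array spread. No number in the labels pairs animals, and replicate numbers only name them.

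Members and lists were chosen with earlier results of these data known. All 33 members may be named; those called get the value of every array, and of the other pathway genes past the F-test up to 4 per list are named, by the size of their largest difference. Alternatives were no filter and a stricter one, equal array medians or a repeated quantile normalization, moderation without the intensity trend or with robust weights, array spread as a covariate, leaving out the 3 arrays of narrowest spread, the mean of probe sets, only the compared strains, and leaving out each animal. The same settings for the F-test of each gene, for the other pathway genes and for the endothelial markers, and the values raised to the 40th percentile, were added after the data were seen. Promoter sequences came from RefSeq (GRCm38.p6). They are reference sequences, and those of the strains themselves were not compared.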

Additional observations from a re-analysis of the deposited data

Results flagged for a closer look

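In 8 of the 132 groups of 5 animals (33 genes in 4 strains), a single animal lay far from the other 4 of its strain, with a gap of more than 0.71 of the whole range (Dixon's criterion). Chance flags about 1 in 20 such groups, or 6.6 of 132. Of the 8 values, 3 belong to B6 replicate 3: Slco1a1 at 11.54 (others 11.85 to 11.91), Amacr at 10.60 (others 10.83 to 10.87) and Abcb4 at 11.32 (others 10.82 to 10.95). NZO replicate 1 was high for Hsd3b7 at 11.60 (others 11.29 to 11.36) and for Slc27a5 at 12.01 (others 11.22 to 11.41). In 129P2, replicate 2 was low for Amacr at 10.39 (others 10.85 to 10.97) and replicate 3 was high for Slco2b1 at 10.36 (others 10.03 to 10.11). In C3H, replicate 2 was high for Nr5a2 at 10.29 (others 10.01 to 10.07).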

How the results depend on the processing

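Of the 52 called differences of bile acid genes between strain pairs, 31 stayed past the threshold under all alternatives run, 21 were lost under at least 1, and 0 changed direction. The count of genes called between 129P2 and B6, 5 with all animals, was 3 with equal array medians and 3 with only those strains fitted, and 2 to 5 without 1 animal. The count between C3H and B6, 9 with all animals, was 5 to 10 without 1 animal. The other counts without 1 animal were 9 to 12 for NZO minus B6, 7 to 10 for NZO minus C3H, 9 to 14 for NZO minus 129P2, 5 to 7 for C3H minus 129P2 and 14 to 18 by the F-test. Why a call was lost was not tested. No paired analysis was possible because the labels pair no animals across strains and the replicate numbers used here only name them. Each strain is 5 animals, and array signal near background limits Cyp39a1 in NZO. Low signal also limits Cyp46a1 outside C3H, and Abcc4 in all strains.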
